A study of Homo sapiens with 12 samples.

Results

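The 6 genes described here encode the phosphofructokinase step of glycolysis and its main switch. They were the rows for PFKL, PFKM, PFKP, PFKFB2, PFKFB3 and PFKFB4, taken by symbol from a table of 25369 genes, and all 6 were found and passed the filter on low counts. Poly(A)+ RNA was sequenced from 3 established human tumour lines, RKO (colon carcinoma), A549 (lung adenocarcinoma) and H460 (lung large cell carcinoma). Each line was kept in normoxia or held at 1% O2 for 24 h, with 2 independent biological replicates per group and 12 libraries in all. RKO and A549 grew in DMEM and H460 in RPMI, so line and medium cannot be told apart where H460 is compared with the others. No group carried a genetic change made by the study, and each line stands for 1 tumour. The comparison within each line asks how steady-state mRNA changed under sustained hypoxia, and the comparison between lines asks whether that change was shared.

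Phosphofructokinase commits glucose to glycolysis by adding a second phosphate to fructose-6-phosphate. Its tetramers are built from the L (liver), M (muscle) and P (platelet) subunits, encoded by PFKL, PFKM and PFKP, and most cells mix them. The strongest activator of the enzyme is fructose-2,6-bisphosphate, a signal molecule that the PFKFB enzymes both make and remove, because each carries a kinase and a phosphatase domain. PFKFB3 has the highest kinase bias of the family and PFKFB2 is the isoform first known from heart. PFKFB4, first known from testis, and PFKFB3 are textbook targets of the hypoxia-inducible factors (HIFs), which bind the short DNA core A/GCGTG of hypoxia response elements.

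Library totals ran from 27350424 to 41757584 counts, and the 6 genes held between 426 and 36422 counts in each library. Levels below are CPM, each count as a share of its library total on the usual CPM scale, after TMM scaling of all 12 libraries together. Fold changes come from edgeR fits to the 4 libraries of each line. The labelled origins were checked against marker genes, of which the colon gene CDX2 exceeded 1 CPM in RKO, while CDX1, VIL1, KRT20 and CDH17 did not. Among 6 lung markers, NAPSA and FOXA2 did so in A549. H460 reached that level only for NKX2-1, whose list summed to 0.603 to 0.733 CPM in normoxia and 4.17 to 4.31 in hypoxia, and SFTPA1, SFTPB and SFTPC stayed below 1 CPM in all lines. The 4 general epithelial markers summed to 185 to 195 CPM in RKO normoxia and 103 to 107 in hypoxia (CDH1 below 1 CPM). In A549 they summed to 2551 to 3107 and 2473 to 2482, and in H460 to 1219 to 1286 and 990 to 1021 (CDH1 and EPCAM below 1 CPM). None of 3 endothelial markers passed 1 CPM in any line, nor did the immune markers PTPRC and CD3E. CD68, the third immune marker, brought that list to 433 to 476 CPM in RKO normoxia and 568 to 638 in hypoxia, to 109 to 151 and 133 to 142 in A549, and to 18.6 to 22.1 and 41.1 to 53.8 in H460. Of 3 fibroblast markers only COL1A1 was above 1 CPM in A549, where the list summed to 47.3 to 83.6 CPM in normoxia and 130 to 430 in hypoxia, while COL3A1 and PDGFRB stayed below 1 CPM. The fibroblast list summed to 0.478 to 0.552 and 2.17 to 2.21 CPM in RKO, and to 32.9 to 37.5 and 30.5 to 46.2 CPM in H460, where all 3 genes passed 1 CPM. The part of these shifts in the results below was not tested.

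Hypoxia raised PFKL, PFKP, PFKFB3 and PFKFB4 in at least 1 line each, and PFKL was the gene called in all 3. PFKFB4 had the largest change, 29.1-fold higher in H460 and 8.16-fold higher in RKO, yet it passed no threshold in A549. PFKP rose in A549 and H460, and PFKFB3 rose in RKO. PFKM and PFKFB2 were called in no line. The call rule asked for an edgeR adjusted p under 0.1 together with more than a 1.5-fold change. By this rule 3 of 6 genes were higher in RKO, where 18.8% of the 12817 genes tested were called higher. In A549 2 of 6 were higher against 2.22% of 14251 genes, and in H460 3 of 6 were higher against 24.6% of 14080. The counts of genes called lower were 0 in each line by edgeR and by DESeq2, against 15.1%, 0.456% and 27.3% of all genes in RKO, A549 and H460. At an unadjusted edgeR p under 0.05, PFKM in RKO and PFKFB2 in A549 were lower. The 6 genes had a median log2 fold change of 0.49 in RKO (all genes tested, 0.01), of 0.53 in A549 (all genes, -0.01) and of 0.76 in H460 (all genes, -0.04).

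The genes map to GRCh37 as follows, with the deposited exon length of each. PFKL lies at chr21:45719917-45747264 on the plus strand and has 3412 exon bases. PFKM lies at chr12:48499656-48540187 on the plus strand with 3823 exon bases, and 436 bases of its span overlap SENP1 on the opposite strand. PFKP lies at chr10:3109712-3178997 on the plus strand with 2969 exon bases. PFKFB3 shares that chromosome, at chr10:6186843-6277507 on the plus strand, with 4864 exon bases. PFKFB2 lies at chr1:207226620-207254368 on the plus strand with 9143 exon bases, and PFKFB4 at chr3:48555117-48594227 on the minus strand with 3490. Counting used strand, so SENP1 reads were kept apart, and the microRNA genes inside PFKM, PFKFB3 and PFKFB4 had at most 4 counts in any library.

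The promoter sequences are shown because PFKL, PFKP, PFKFB3 and PFKFB4 moved with hypoxia in at least 1 line. Each is the 250 bases before a RefSeq transcript start on GRCh38.p14, written 5′ to 3′ on the strand of the gene, and capitals mark ACGTG or GCGTG on either strand (CACGT and CACGC when read on this strand). RefSeq windows matched 5 of the 6 genes, with PFKFB2 the missing entry. The windows printed are chr3:48556804-48557053 (minus strand) for PFKFB4, chr10:6202682-6202931 (plus) for PFKFB3, chr21:44299803-44300052 (plus) for PFKL and chr10:3068939-3069188 (plus) for PFKP.
PFKFB4: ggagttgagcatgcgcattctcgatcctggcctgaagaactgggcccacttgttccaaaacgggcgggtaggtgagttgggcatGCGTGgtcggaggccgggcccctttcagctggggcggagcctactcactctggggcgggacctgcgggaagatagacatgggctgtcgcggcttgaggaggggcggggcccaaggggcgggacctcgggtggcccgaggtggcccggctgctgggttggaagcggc
PFKFB3: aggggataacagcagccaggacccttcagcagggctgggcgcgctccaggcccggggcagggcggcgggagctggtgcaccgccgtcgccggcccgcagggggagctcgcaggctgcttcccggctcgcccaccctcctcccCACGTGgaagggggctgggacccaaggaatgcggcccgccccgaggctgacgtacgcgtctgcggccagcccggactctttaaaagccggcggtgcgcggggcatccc
PFKL: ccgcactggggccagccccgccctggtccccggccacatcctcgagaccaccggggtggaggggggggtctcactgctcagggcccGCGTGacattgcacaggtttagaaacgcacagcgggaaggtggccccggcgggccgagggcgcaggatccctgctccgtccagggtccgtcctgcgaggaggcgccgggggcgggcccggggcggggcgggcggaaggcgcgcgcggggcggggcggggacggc
PFKP: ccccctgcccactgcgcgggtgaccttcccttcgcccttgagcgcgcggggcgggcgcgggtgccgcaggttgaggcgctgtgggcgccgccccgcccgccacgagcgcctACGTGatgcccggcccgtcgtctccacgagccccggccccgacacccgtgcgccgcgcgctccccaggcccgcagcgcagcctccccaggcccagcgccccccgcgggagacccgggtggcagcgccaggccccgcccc
In PFKFB4 the match GCGTG begins 166 bases before the start, and in PFKL the same letters begin 164 bases before it. In the printed PFKP window the match ACGTG begins 139 bases before the start. Of the other PFKP windows, chr10:3067720-3067969 and chr10:3068377-3068626 held no match and chr10:3104359-3104608 held 3. In PFKFB3 the palindrome CACGTG holds 2 overlapping matches, ACGTG on each strand, which begin 108 and 107 bases before the start. The other PFKFB3 window, chr10:6144671-6144920, held CACGC, 168 bases before its start. Which start these cells used was not tested. Over all windows of these genes 7 of 15 held a match, including 1 of PFKM, which did not rise. Such matches were common, since 43.2% of the 35116 RefSeq windows of the same length and 47.4% of 27305 genes had at least 1. They are letters found in a window and carry no measure of binding.

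**Figure D1:**
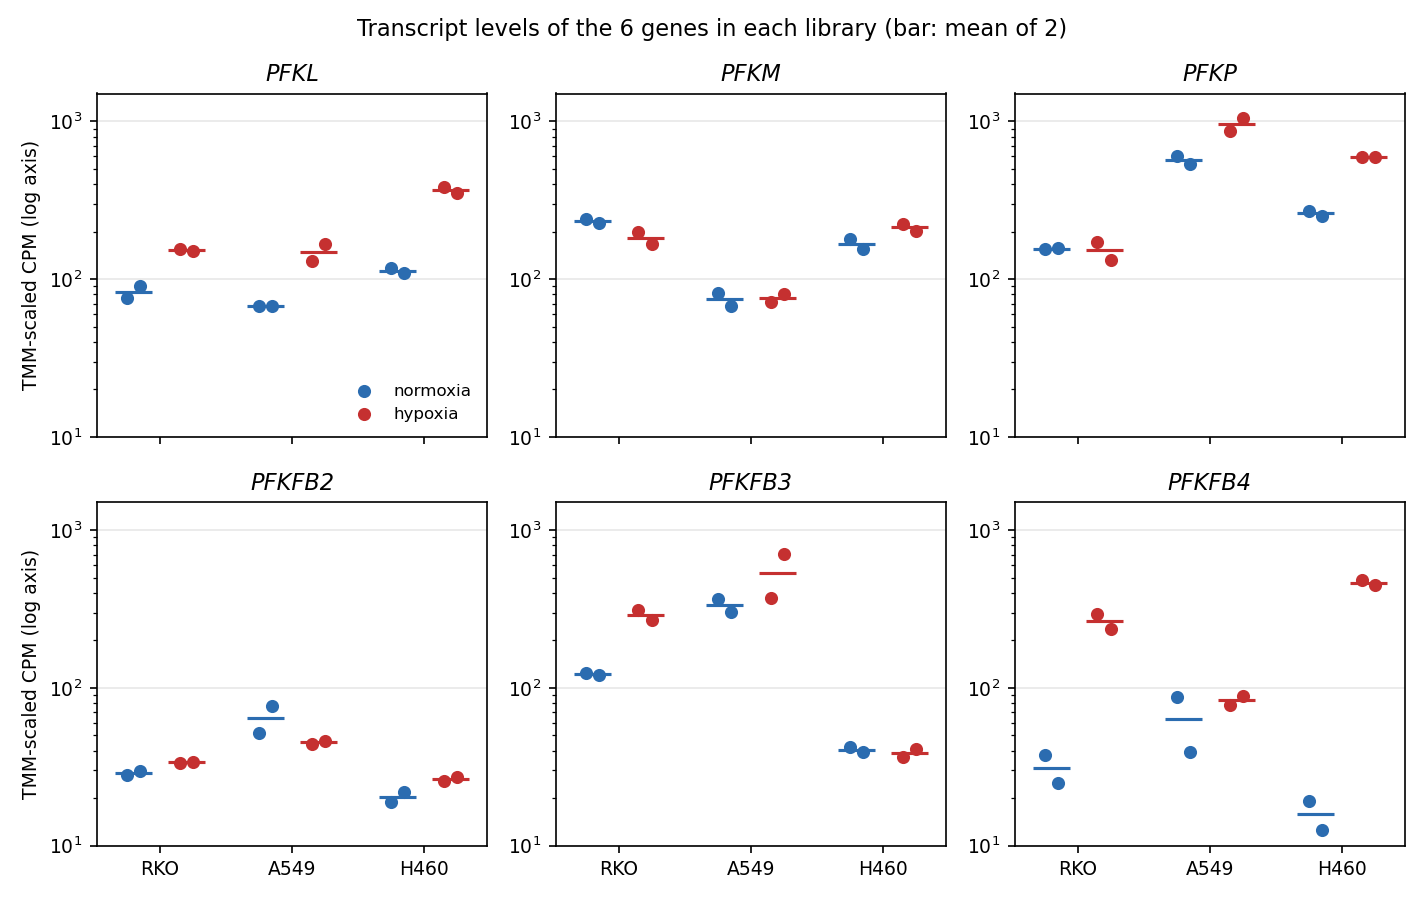
TMM-scaled CPM on a log axis for each of the 6 genes, with 1 point per library, blue for normoxia and red for hypoxia, and a bar at the mean of 2 replicates. PFKL points separate in all 3 lines, and PFKFB4 points separate widely in RKO and H460 and overlap in A549. PFKM hypoxia points lie a little below normoxia in RKO and a little above it in H460, and overlap with it in A549.

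PFKL, the liver-type subunit, rose in every line. In RKO its level was 76.1 and 90.4 CPM in the normoxia libraries and 155 and 151 CPM in the hypoxia libraries. In A549 it was 67.5 and 68.0 CPM in normoxia and 130 and 168 CPM in hypoxia. In H460 it was 117 and 109 CPM in normoxia and 382 and 353 CPM in hypoxia. Both hypoxia libraries lay above both normoxia libraries in each line, and the H460 hypoxia libraries were the highest of the 12. Such separation was common with 2 libraries per condition. In RKO 4991 of 12817 genes tested lay wholly above their controls, in A549 3712 of 14251 and in H460 5974 of 14080. Those wholly below their controls numbered 4047, 3399 and 6185. The log2 fold change of PFKL was 0.82 ± 0.15 (SE, n = 2 per condition) in RKO, with an edgeR adjusted p of 0.00238. It was 1.12 ± 0.18 in A549 (edgeR adjusted p = 0.0235) and 1.68 ± 0.09 in H460 (edgeR adjusted p = 2.16e-08). In bulk RNA a change in RNA per cell cannot be told apart from a change in the share of cells that carry it.

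PFKP, the platelet-type subunit, rose in the lung lines and not detectably in RKO. In RKO its level was 156 and 156 CPM in normoxia and 172 and 133 CPM in hypoxia. The A549 libraries held far more, 599 and 536 CPM in normoxia and 872 and 1048 CPM in hypoxia. H460 lay between them with 271 and 252 CPM in normoxia and 597 and 590 CPM in hypoxia. The RKO conditions overlapped, whereas the hypoxia libraries of A549 and H460 all lay above their controls. On the log2 scale the change was -0.09 ± 0.16 in RKO (95% interval -0.45 to 0.27), 0.74 ± 0.18 in A549 (edgeR adjusted p = 0.0993) and 1.17 ± 0.09 in H460 (edgeR adjusted p = 3.82e-07). The A549 call was at the edge of the threshold in the main fit. With RLE factors (edgeR adjusted p = 0.104), library size alone (0.149) or over 1 CPM in every library (0.109) it was not made. Limma at both pseudocounts did not make it either (adjusted p = 0.148 and 0.177). DESeq2 (adjusted p = 0.0148), the joint fit (edgeR adjusted p = 0.0111), no filter (0.0344) and the replicate block (0.000303) kept the call. No filter and the block can give far smaller p values than the main fit. For PFKL in H460 the edgeR adjusted p was 7.26e-59 and 3.12e-33, beside 2.16e-08 in the main fit. Their p values are therefore not on the scale of the main fit. It was lost without normoxia replicate 1 (0.83, edgeR adjusted p = 0.164), normoxia replicate 2 (0.66, 0.270) or hypoxia replicate 2 (0.62, 0.472).

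PFKM, the muscle-type subunit, was not called in any line, and its differences had no common direction. In RKO its level was 242 and 226 CPM in normoxia and 200 and 167 CPM in hypoxia. A549 held the least, with 82.0 and 68.0 CPM in normoxia and 71.4 and 80.9 CPM in hypoxia. The H460 libraries had 179 and 156 CPM in normoxia and 223 and 202 CPM in hypoxia. The RKO hypoxia libraries were both below their controls, the H460 ones were both above, and those of A549 overlapped. Hypoxia minus normoxia gave a log2 value of -0.41 ± 0.16 in RKO (edgeR adjusted p = 0.0570), 0.01 ± 0.18 in A549 (edgeR adjusted p = 0.991) and 0.33 ± 0.10 in H460 (edgeR adjusted p = 0.00995). The RKO and H460 values passed the p threshold but not the fold threshold of 1.5. Scaling by library size alone lowered the median of all H460 genes from -0.04 to -0.39, and under it PFKM in H460 turned to -0.03, still above that median.

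PFKFB4, the testis-type bifunctional enzyme, gave the steepest changes of the group. In RKO its level was 37.3 and 25.0 CPM in normoxia and 296 and 235 CPM in hypoxia. The H460 libraries went from 19.1 and 12.5 CPM in normoxia to 479 and 446 CPM in hypoxia. Those of A549 held 87.2 and 39.0 CPM in normoxia and 77.98 and 88.7 CPM in hypoxia. The H460 libraries thus held both the lowest normoxia and the highest hypoxia values, and the A549 conditions overlapped because normoxia replicate 1 was as high as the hypoxia libraries. PFKFB4 changed by a log2 fold of 3.03 ± 0.22 in RKO (edgeR adjusted p = 3.91e-05) and 4.87 ± 0.17 in H460 (edgeR adjusted p = 1.40e-09). These values ranked 125 from the highest of 12817 genes in RKO and 34 from the highest of 14080 genes in H460. The A549 change was 0.39 ± 0.32 (95% interval -0.33 to 1.10, edgeR adjusted p = 0.584). That A549 value depended on 1 library, since without normoxia replicate 1 it was 1.08 and called (edgeR adjusted p = 0.0311), and without normoxia replicate 2 it was -0.09.

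PFKFB3, the isoform with the strongest kinase bias, showed a different order of lines. In RKO its level was 124 and 120 CPM in normoxia and 310 and 270 CPM in hypoxia. A549 had the highest levels, 367 and 302 CPM in normoxia and 373 and 701 CPM in hypoxia. H460 had the lowest, 42.3 and 39.0 CPM in normoxia and 36.7 and 40.9 CPM in hypoxia. RKO conditions were well apart, H460 conditions overlapped, and in A549 hypoxia replicate 1 lay barely above the higher control. The RKO rise was 1.19 ± 0.15 on the log2 scale (edgeR adjusted p = 0.000365), and the H460 value was -0.08 ± 0.10 (95% interval -0.30 to 0.14). The A549 value was 0.67 ± 0.27 (95% interval 0.05 to 1.28), which missed the threshold (edgeR adjusted p = 0.270). The A549 value was called with replicate number as a block (0.61, edgeR adjusted p = 0.0123) and in the fit of all 12 libraries (0.68, 0.0804). As said for PFKP, p values with the block are not on the scale of the main fit. The A549 value was 1.04 without hypoxia replicate 1 and 0.15 without hypoxia replicate 2.

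PFKFB2, the heart-type isoform, was the PFKFB gene called in no line. In RKO its level was 27.9 and 29.6 CPM in normoxia and 33.6 and 34.0 CPM in hypoxia. A549 again held more, 51.9 and 77.2 CPM in normoxia and 44.1 and 46.3 CPM in hypoxia. H460 held less, 19.0 and 21.7 CPM in normoxia and 25.6 and 27.3 CPM in hypoxia. The hypoxia libraries were slightly above their controls in RKO and H460 and below them in A549. Log2 fold changes were 0.17 ± 0.16 in RKO (edgeR adjusted p = 0.440), -0.53 ± 0.22 in A549 (edgeR adjusted p = 0.269) and 0.36 ± 0.11 in H460 (edgeR adjusted p = 0.0129, under 1.5-fold). With library size alone the H460 value was 0.01, again above the median of all genes under that scaling.

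**Figure D2:**
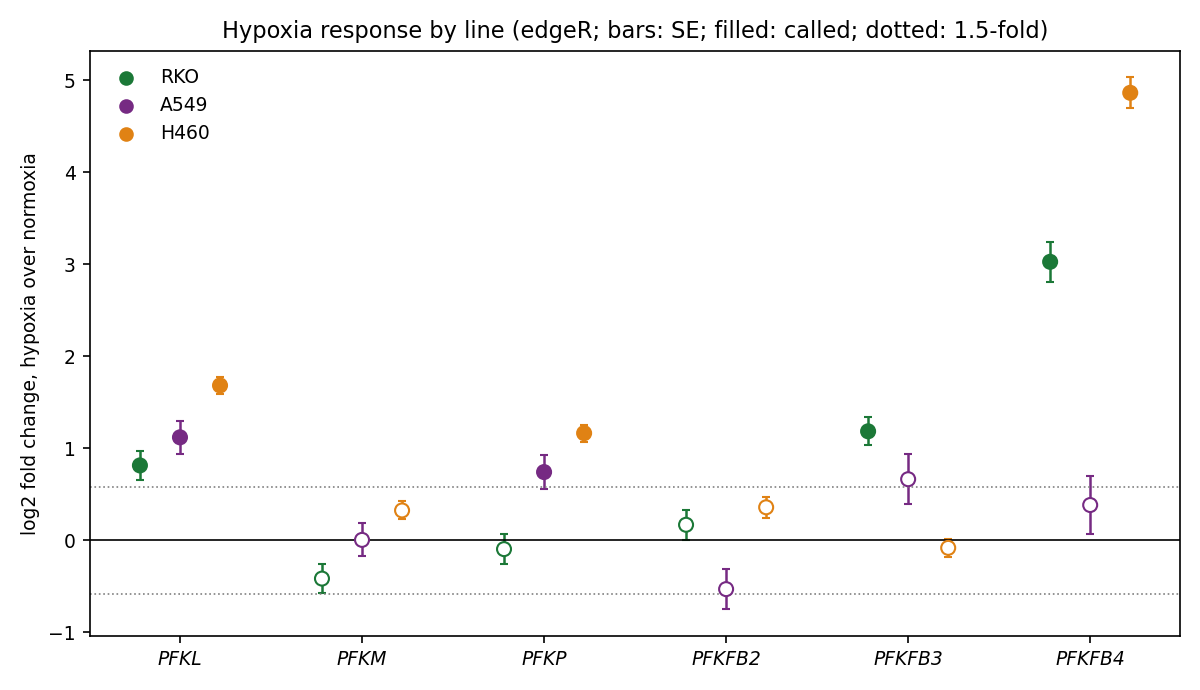
The log2 fold change of hypoxia over normoxia with its SE for each gene and line, filled where called and open where not, with dotted lines at 1.5-fold in either direction. PFKL is filled in all 3 lines, PFKFB4 reaches 4.87 in H460 but is open in A549, and PFKM and PFKFB2 are open throughout.

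Averaged over the 3 lines in the fit of all 12 libraries, 4 of 6 genes were higher and 0 were lower by edgeR, beside 14.8% and 11.5% of 15595 genes. No member had a negative average in edgeR, so none was lower at an unadjusted p under 0.05, and DESeq2 and limma called 0 lower as well. The averages were 2.79 ± 0.18 for PFKFB4, 1.24 ± 0.08 for PFKL, 0.64 ± 0.09 for PFKP and 0.62 ± 0.13 for PFKFB3. PFKM averaged 0.00 ± 0.09 (95% interval -0.18 to 0.19) and PFKFB2 0.03 ± 0.10 (95% interval -0.18 to 0.25). The calls of PFKP and PFKFB3 lay near the fold threshold. PFKP fell below it without RKO hypoxia replicate 1 (0.57), and PFKFB3 did so without A549 normoxia replicate 2 (0.58) or A549 hypoxia replicate 2 (0.45).

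The response differed between lines for each of the 6 genes in a test over the 3 lines together, at edgeR adjusted p values from 4.84e-05 for PFKFB4 to 0.0453 for PFKM, beside 48.8% of all genes. With library size alone and with limma at both pseudocounts this held for 4 of 6 genes, as PFKL and PFKM lost the call (adjusted p = 0.179 and 0.330 with library size alone). PFKM also lost it without RKO normoxia replicate 1 (edgeR adjusted p = 0.128), RKO hypoxia replicate 2 (0.146), H460 normoxia replicate 2 (0.158) or H460 hypoxia replicate 1 (0.149), and PFKFB2 without A549 normoxia replicate 2 (0.104). Between RKO and A549 the response differed for 3 of 6 genes (14.6% of all genes), between RKO and H460 for 5 of 6 (37.6%) and between A549 and H460 for 4 of 6 (36%). PFKFB4 differed in each pair, with a rise larger in RKO than in A549 by 2.69 ± 0.43 on the log2 scale (edgeR adjusted p = 0.00265). Its rise was larger in H460 than in RKO, the RKO minus H460 difference being -1.79 ± 0.43 (edgeR adjusted p = 0.00684). The A549 minus H460 difference of PFKFB4 was -4.48 ± 0.44 (edgeR adjusted p = 4.25e-05). Without A549 normoxia replicate 1 the first of these was 1.99 and the last -3.78, and both kept their call.

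PFKFB3 went the other way from PFKFB4 between RKO and H460. Its response was larger in RKO by 1.31 ± 0.32 (edgeR adjusted p = 0.00682), while PFKL, PFKM and PFKP responded less in RKO than in H460. The RKO minus H460 differences were -0.82 ± 0.21 for PFKL, -0.70 ± 0.21 for PFKM and -1.21 ± 0.22 for PFKP (edgeR adjusted p = 0.00819, 0.0222 and 0.00111). The PFKL and PFKM calls were lost when libraries were scaled by size alone (-0.44 and -0.31). That of PFKM was also lost with limma at both pseudocounts (-0.31, adjusted p = 0.164 and 0.152) and without H460 normoxia replicate 2 (-0.60).

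A549 differed from the other lines in PFKFB2 as well. RKO minus A549 was 0.75 ± 0.24 for PFKFB2 (edgeR adjusted p = 0.0740) and A549 minus H460 was -0.89 ± 0.25 (edgeR adjusted p = 0.0161), so its response was the lower one in A549 both times. PFKP responded more in A549 than in RKO, with an RKO minus A549 value of -0.79 ± 0.22 (edgeR adjusted p = 0.0401). The A549 minus H460 value of PFKP, -0.42 ± 0.22 (95% interval -0.89 to 0.04), was not called, but was called with replicate number as a block (-0.43, edgeR adjusted p = 0.0839). PFKL responded less in A549 than in H460, at -0.56 ± 0.21 (edgeR adjusted p = 0.0547), and RKO and A549 were not told apart for it (-0.26, 95% interval -0.70 to 0.18). The A549 minus H460 call of PFKL was lost with library size alone (-0.30, edgeR adjusted p = 0.260) and with limma at both pseudocounts (adjusted p = 0.212 and 0.187), and limma also lost that of PFKFB2 (-0.59 and -0.52). PFKFB3 responded more in A549 than in H460, at 0.75 ± 0.31 (edgeR adjusted p = 0.0913), a call that the replicate block removed (0.69, edgeR adjusted p = 0.104). Several of these calls rested on single libraries. PFKFB3 in A549 minus H460 was 0.22 without A549 hypoxia replicate 2, and PFKFB2 in RKO minus A549 was 0.43 without A549 normoxia replicate 2, neither of them called. PFKP in RKO minus A549 lost its call without RKO hypoxia replicate 2 (-0.60), and PFKL in A549 minus H460 without A549 hypoxia replicate 1 (-0.39).

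**Figure D3:**
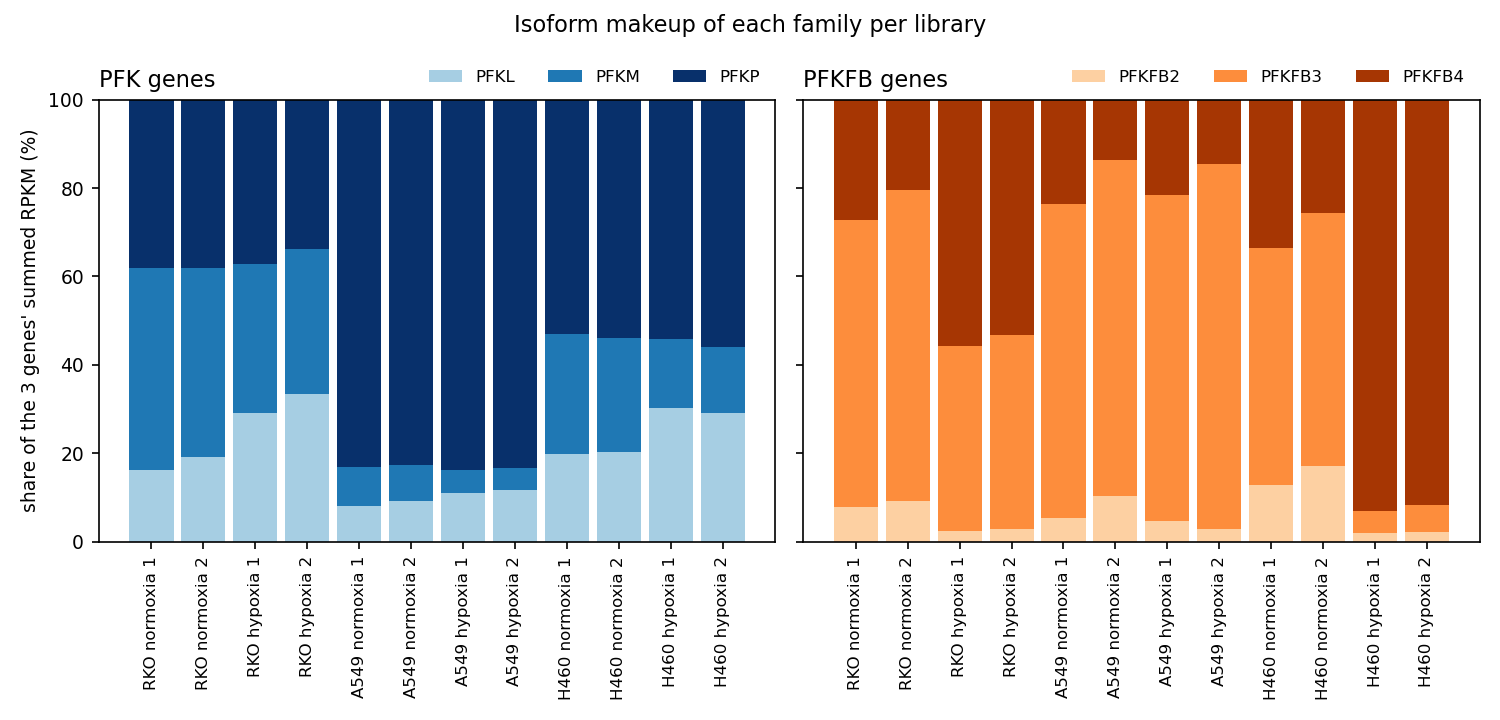
Stacked bars give, for each library, the percent of summed RPKM held by each of the 3 PFK genes on the left and each of the 3 PFKFB genes on the right. PFKP holds at least 82.7% in all A549 libraries, and PFKFB4 goes from 29.6% to 92.4% of the PFKFB sum in H460 on average.

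Levels of different genes were compared per length, with the deposited RPKM, as a description without a test. RPKM carries no TMM scaling. TMM factors were 0.786 and 0.829 in H460 hypoxia and 1.03 and 1.05 in H460 normoxia, so rises in H460 are smaller in RPKM than in CPM. Shares within a library do not depend on this scaling. PFKP was the main PFK subunit transcript of A549, with 82.9% ± 0.22 (SD, n = 2) of the PFK sum in normoxia and 83.6% ± 0.29 in hypoxia. It was also first in H460, with 53.4% ± 0.64 and 55.1% ± 1.30. RKO differed in having PFKM first in normoxia, at 44.3% ± 2.19 beside 38.0% ± 0.06 for PFKP. The share of PFKL was higher in hypoxia in each line, from 17.7% to 31.2% in RKO, from 8.64% to 11.2% in A549 and from 20.1% to 29.6% in H460. The share of PFKM was lower in each, from 44.3% to 33.2%, from 8.49% to 5.16% and from 26.5% to 15.3%. The sum of the 3 PFK genes went from 147 to 155 RPKM in RKO, from 243 to 379 in A549 and from 172 to 293 in H460.

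Within the PFKFB genes PFKFB3 held most of the RPKM in normoxia in all lines. Its share was 67.6% ± 3.83 for RKO, 73.5% ± 3.46 for A549 and 55.4% ± 2.71 for H460. Under hypoxia PFKFB4 came first in RKO, at 54.5% ± 1.76 beside 42.8% ± 1.40 for PFKFB3, and in H460, at 92.4% ± 0.84, while A549 kept PFKFB3 first at 78.2% ± 6.15. The RKO order depended on gene length, since by CPM PFKFB3 held 49.3% and PFKFB4 44.97% there. The PFKFB4 to PFKFB3 ratio of RPKM was 0.420 and 0.290 in the RKO normoxia libraries and 1.33 and 1.21 in the hypoxia libraries. In H460 it was 0.629 and 0.447 in normoxia and 18.2 and 15.2 in hypoxia. The A549 ratio was 0.332 and 0.180 in normoxia and 0.291 and 0.177 in hypoxia, so only there did the conditions overlap. The PFKFB sum, again without TMM scaling, went from 39.5 to 150 RPKM in RKO, from 98.9 to 136 in A549 and from 15.7 to 116 in H460.

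The full order of the 6 genes by mean RPKM also changed. In RKO normoxia it ran PFKM (65.0), PFKP (55.9), PFKFB3 (26.7), PFKL (26.0), PFKFB4 (9.46) and PFKFB2 (3.35), with PFKFB3 and PFKL overlapping. In RKO hypoxia PFKFB4 (81.8) came first, ahead of PFKFB3 (64.2), and PFKP (55.2), PFKM (51.6) and PFKL (48.4) followed with overlapping neighbours. In A549 PFKP (202 in normoxia, 317 in hypoxia) and PFKFB3 (72.5 and 108) led in both conditions, and PFKL (21.0), PFKM (20.7) and PFKFB4 (19.0) overlapped in normoxia. In H460 normoxia PFKP (91.7), PFKM (45.6) and PFKL (34.5) stood above PFKFB3 (8.69), PFKFB4 (4.70) and PFKFB2 (2.32). In H460 hypoxia PFKFB4 (107) moved to the second place behind PFKP (161), above PFKL (86.7) and PFKM (44.7). PFKFB2 was the lowest in all 6 groups.

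The lines already differed in normoxia. RKO and A549 differed at 5 of 6 genes beside 60.2% of all genes, RKO and H460 at 3 of 6 beside 61.9%, and A549 and H460 at 6 of 6 beside 52.1%. The largest difference was PFKFB3, which A549 held at a level 3.04 ± 0.24 (log2, edgeR adjusted p = 6.93e-08) above H460. RKO minus A549 was -1.45 ± 0.22 for PFKFB3. PFKP was also higher in A549, by 1.12 ± 0.15 over H460, and RKO minus A549 was -1.86 ± 0.16 (edgeR adjusted p = 1.02e-07). PFKM was lowest in A549, with RKO above it by 1.64 ± 0.15 (edgeR adjusted p = 2.52e-07). PFKL in A549 differed from H460 by -0.74 ± 0.15 (edgeR adjusted p = 0.000588), and RKO minus A549 was 0.30 ± 0.15 for PFKL, under 1.5-fold. PFKFB4 was highest in A549, by 2.00 ± 0.32 over H460 (edgeR adjusted p = 8.16e-05). RKO minus A549 was -1.02 ± 0.30 for PFKFB4 (edgeR adjusted p = 0.00820). Without A549 normoxia replicate 1 these became 1.31, still called, and -0.32, no longer called. PFKFB4 in RKO exceeded H460 by 0.98 ± 0.31 (edgeR adjusted p = 0.0113), a call lost without RKO normoxia replicate 1 (0.65) or H460 normoxia replicate 2 (0.69).

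Of 4 relatives that act on the same sugar phosphates, only C12orf5, the older symbol of TIGAR, was expressed at a level tested in all 3 lines. TIGAR removes fructose-2,6-bisphosphate. In H460 its level was 20.8 and 19.8 CPM in normoxia and 7.01 and 7.998 CPM in hypoxia, a fall by 1.45 on the log2 scale (SE 0.13, edgeR adjusted p = 1.41e-06). In RKO it was 52.5 and 52.8 CPM in normoxia and 67.3 and 79.1 CPM in hypoxia (0.42 ± 0.16, edgeR adjusted p = 0.0574, under 1.5-fold). The A549 level was 48.0 and 35.1 CPM in normoxia and 38.4 and 23.0 CPM in hypoxia (-0.45 ± 0.28, edgeR adjusted p = 0.453). H460 thus had falling C12orf5 beside rising PFKFB4, with groups that did not overlap for either. Of 14080 genes tested in H460, 5974 lay wholly above and 6185 wholly below their controls. PFKFB1, the liver isoform, had 4 to 23 counts per library, and in A549, where it was tested, its log2 fold change was 0.23 ± 0.49 (edgeR adjusted p = 0.856). FBP1 and FBP2, the phosphatases that run the step in reverse for gluconeogenesis, had at most 5 and 1 counts and were not tested.

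Of 20 other glycolysis genes 15 were tested in each line. In RKO 9 were higher (18.8% of all genes tested) and 1 was lower (15.1%). In A549 8 were higher (2.22% of all genes), and in H460 11 were higher (24.6%). Their medians were 0.71, 0.79 and 1.18, beside 0.01, -0.01 and -0.04 for all genes tested. The largest rises were in ALDOC, an aldolase, and HK2, a hexokinase, in RKO (3.30 ± 0.33 and 2.45 ± 0.24) and A549 (3.17 ± 0.33 and 2.52 ± 0.29). In H460 they were in ENO2, an enolase (5.13 ± 0.13), and ALDOC (3.70 ± 0.10). PFKFB4 in H460 therefore lay between ENO2 and ALDOC, and in RKO between ALDOC and HK2. At the low end LDHB, a lactate dehydrogenase subunit, was -0.79 ± 0.17 in RKO, the one gene called lower, and had values of -0.13 ± 0.18 in A549 and -0.35 ± 0.09 in H460. The next lowest were the enolases ENO1 in RKO (-0.10 ± 0.18) and ENO3 in A549 (-0.07 ± 0.24) and H460 (0.30 ± 0.13), none of them called.

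**Figure D4:**
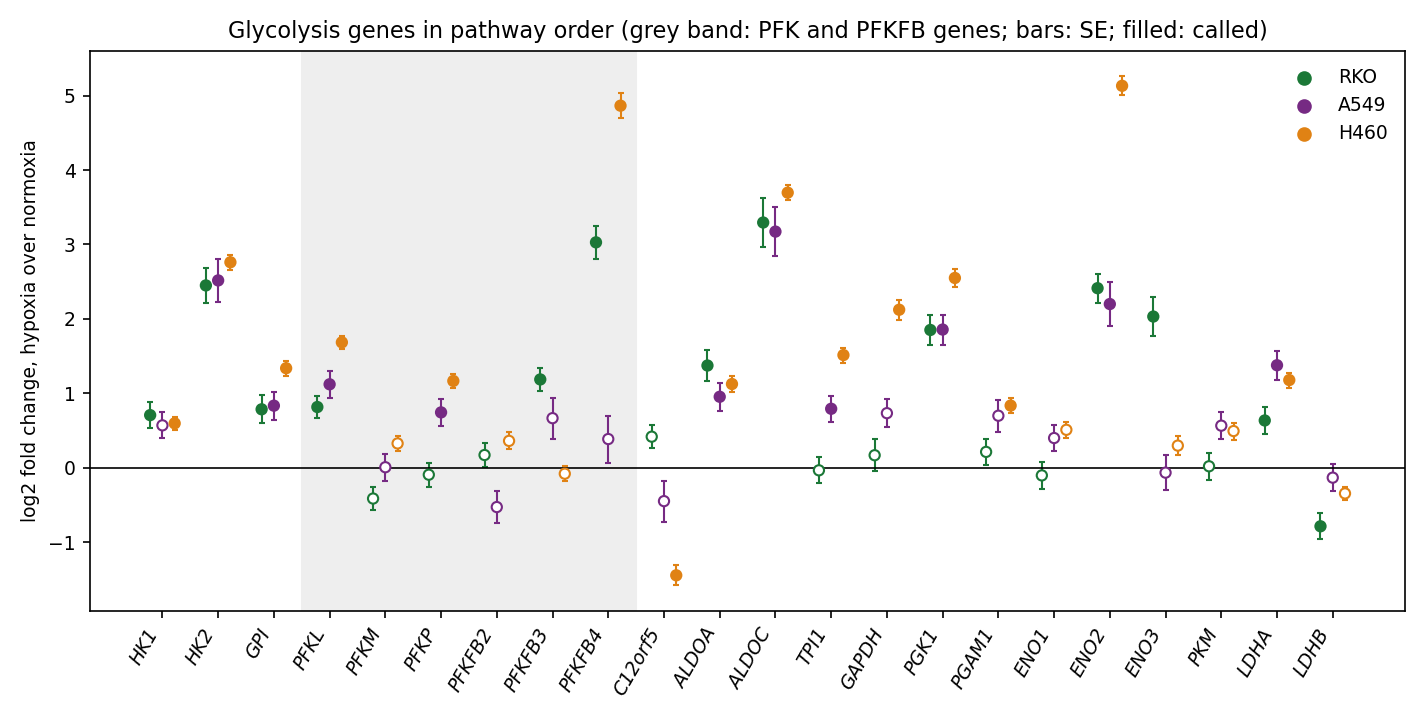
The log2 fold change of hypoxia over normoxia with its SE for the tested glycolysis genes, C12orf5 and, on the grey band, the 6 PFK and PFKFB genes, filled where called. PFKFB4 in H460 (4.87) and ENO2 in H460 (5.13) are the highest points, and C12orf5 in H460 (-1.45) is the lowest.

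The genes whose levels ran most like each member over the 12 libraries were listed as a description, by Pearson's r of log2(CPM + 1) among 11138 genes. The 12 points share 3 lines and 2 conditions, and no p is given. For PFKFB4 they were BBC3 (0.979), PPP2R5B (0.970) and C11orf30 (0.966), and for PFKFB3 they were F8 (0.989), MYRF (0.987) and NINL (0.984). PFKFB2 ran most like CYTH3 (0.944), UVRAG (0.940) and DTX2 (0.938). Nearest to PFKP were AFAP1 (0.985), CFD (0.985) and PLOD2 (0.981). The corresponding genes were WBP5 (0.972), LIX1L (0.964) and CCDC104 (0.961) for PFKL, and B4GALT3 (0.988), ZBED4 (0.987) and TRAPPC2 (0.975) for PFKM. No gene appeared for more than 1 member.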

How the data were processed

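Strand-specific poly(A)+ RNA-seq libraries of 12 samples were used, 2 in each of 6 groups of line and oxygen condition given by the labels. According to the submitters' processing notes, reads were handled with bcl2fastq, FastQC 0.11.5, TopHat2 2.0.13, Bowtie2 2.2.3.0, SAMtools 1.3.1, Picard 1.129 and HTSeq 0.6.1 on GRCh37/hg19. Per the study's methods, alignments of low mapping quality were removed and exon reads were counted by strand. The authors deposited raw counts for 25369 genes. The authors also deposited RPKM, which equalled the count after division by exon length and library sum in RPKM units (largest relative difference 4.98e-12). Deposited starts count from 0, so 1 was added.

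Counts were tested by quasi-likelihood F tests of edgeR 4.0.16 (R 4.3.3), with TMM factors and Benjamini-Hochberg adjustment over all genes tested. Each line was fitted on its 4 libraries, on genes over 0.5 CPM in at least 2 of them, and a gene was called at an adjusted p under 0.1 and a fold change over 1.5. Averages, differences between responses (adjusted p alone) and normoxia differences came from 1 fit of all 12 libraries, and these share control samples. Intervals are 95%. Scripts were tested on simulated data. Alternatives were DESeq2 1.42.0, limma 3.58.1 fits to log2(RPKM + 0.1) and log2(RPKM + 1), RLE factors, library size alone, other filters and thresholds, a joint fit, a replicate block and leaving out each library.

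Deviations of same-numbered replicates from their group means correlated within each line (r = 0.364 in RKO, 0.382 in A549 and 0.158 in H460, over genes). The main fits did not pair the samples. Pairing by replicate number entered only as the replicate block among the alternatives. The labels do not say what a number shares.

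The 6 genes and all lists were chosen with earlier results of these data known. Beside members and 4 relatives, the genes named were the 2 highest and 2 lowest of 20 other glycolysis genes in each line, the 3 genes most like each member among those with a mean of at least 100 counts, and genes overlapping a member. Markers were 6 colon, 6 lung, 4 epithelial, 3 fibroblast, 3 immune and 3 endothelial genes. The result of 1 marker is not reported here. Library totals of 27350424 to 41757584 counts gave each member at least 426 counts. Each SE comes from the edgeR test, whose estimate of the spread between replicates is moderated over all genes tested. Over all genes, a log2 fold change had a median SE of 0.18 (RKO), 0.22 (A549) or 0.11 (H460).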

Additional observations from a re-analysis of the deposited data

Results flagged for a closer look

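The responses to hypoxia of these genes differed between lines in 12 pairwise tests (edgeR, fit of all 12 libraries, adjusted p under 0.1), given here as log2 differences. The cause was not tested for any of them.

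PFKFB4 differed in all 3 pairs, at 2.69 for RKO minus A549, -1.79 for RKO minus H460 and -4.48 for A549 minus H460, and it kept these calls whichever single library was left out. PFKFB3 differed at 1.31 for RKO minus H460. Its A549 minus H460 value of 0.75 (edgeR adjusted p = 0.0913) kept the call only without RKO hypoxia replicate 1, RKO hypoxia replicate 2, A549 normoxia replicate 1 or A549 hypoxia replicate 1, and was 0.22 without A549 hypoxia replicate 2. With the replicate block that value was 0.69 and not called (edgeR adjusted p = 0.104). PFKFB2 differed at 0.75 for RKO minus A549 and -0.89 for A549 minus H460. The first kept its call only without A549 normoxia replicate 1, A549 hypoxia replicate 2 or H460 normoxia replicate 2, and was 0.43 without A549 normoxia replicate 2.

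PFKP differed at -0.79 for RKO minus A549 and -1.21 for RKO minus H460. The first lost its call without RKO normoxia replicate 1 (-0.79), RKO hypoxia replicate 2 (-0.60) or A549 normoxia replicate 2 (-0.71). The A549 minus H460 value of PFKP, -0.42 (edgeR adjusted p = 0.163), was called with the replicate block (-0.43, edgeR adjusted p = 0.0839) and without A549 hypoxia replicate 2 (-0.56). PFKL differed at -0.82 for RKO minus H460 and -0.56 for A549 minus H460. The latter lost its call without A549 hypoxia replicate 1 (-0.39), H460 normoxia replicate 1 (-0.61), H460 normoxia replicate 2 (-0.55) or H460 hypoxia replicate 1 (-0.55). PFKM differed at -0.70 for RKO minus H460, and lost that call without H460 normoxia replicate 2 (-0.60). Library size alone and limma at both pseudocounts also removed that PFKM call (-0.31 in each). PFKFB3 between RKO and A549 was not called (0.56) except without A549 hypoxia replicate 2 (1.09, edgeR adjusted p = 0.0112).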

How the results depend on the processing

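Of 1110 member values under an alternative, 1015 kept direction and side of the threshold, 58 kept direction but lost the call, 7 gained it and 30 turned in sign. Causes were not tested beyond what each setting changes by construction. The number of members higher in A549 was 1 in place of 2 at a fold over 2, at an adjusted p under 0.05, with RLE factors, library size alone, over 1 CPM in every library, and limma at both pseudocounts, and 1 to 3 with 1 library left out. It was 3 in the joint fit and with the replicate block. At a fold over 2 RKO had 2 in place of 3, since PFKL there was 0.82, so PFKL was then called in A549 and H460 alone. The average had 2 members higher in place of 4 with library size alone and with limma at both pseudocounts, and 3 to 4 with 1 library left out. Members whose response differed were 3 in place of 5 for RKO minus H460 with library size alone (4 to 5 with 1 library left out) and 2 in place of 4 for A549 minus H460 with both limma fits (2 to 4), and 3 with library size alone. In the test over the 3 lines together they were 4 in place of 6 with library size alone and both limma fits, and 5 to 6 with 1 library left out. For RKO minus A549 they were 1 to 4. Glycolysis genes lower in H460 were 1 in place of 0 with library size alone. Beyond the PFKFB3 and PFKP values given with the replicate block (0.61 for PFKFB3 in A549), the block changed no member call.

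With library size alone and limma at pseudocounts of 0.1 and 1, signs turned for PFKM in A549 (-0.085, -0.080, -0.077), PFKM in H460 (-0.027, -0.024, -0.024), the PFKM average (-0.15, -0.15, -0.14), the PFKFB2 average (-0.12, -0.11, -0.10) and PFKFB2 RKO minus H460 (0.24, 0.24, 0.19). Of these, the PFKM average passed the p threshold in both limma fits (limma adjusted p = 0.0916 and 0.0826) but not the fold threshold, so it was not called. With no filter PFKM was -0.00109 in A549 and -0.000396 on average. With 1 library left out signs turned within -0.24 to 0.090 for PFKP in RKO, -0.13 to 0.15 for PFKM in A549, -0.085 to 1.08 for PFKFB4 in A549, -0.18 to 0.016 for PFKFB3 in H460, -0.039 to 0.051 for the PFKM average and -0.055 to 0.14 for the PFKFB2 average.

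Shares taken from CPM, without gene length, put PFKP at 33.0% (normoxia) and 31.1% (hypoxia) for RKO, at 79.9% and 81.0% for A549, and at 48.3% and 50.6% for H460. PFKFB4 was at 17.0% (normoxia) and 44.97% (hypoxia) for RKO, and at 20.4% and 87.6% for H460. Responses in A549, where the spread was widest, were the least precisely measured, with 2 replicates per condition.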
